A study of Mus musculus with 6 samples.

Results

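The cholesterol genes described here are 9 genes that control how a cell esterifies, exports and senses sterols. They were taken by symbol from the 22105 rows of the deposited read counts that carried a gene identifier, and all 9 were found. The symbols are Soat1, Soat2, Srebf1, Srebf2, Scap, Insig1, Insig2, Abca1 and Abcg1. The symbols were chosen by pathway and with their fold changes between the treated and control libraries already known, so these fold changes and calls are given as a description and no p is attached to them. No receptor for uptake is among the 9, and uptake is covered by a separate list of pathway genes.

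4T1 is a mouse mammary carcinoma cell line, here labelled as mammary gland epithelial cancer cells. All libraries came from this line, for which the labels give no genetic change. The 3 control libraries were from cells given DMSO, the solvent, and the 3 treated libraries were from cells given P3FI-90, an inhibitor of the histone demethylase KDM3B, at 10 µM for 24 h. Each library gave between 31327094 and 37395732 counts on named genes, and 12288 genes had enough reads to be tested and were then scaled by TMM. The labels do not say whether the libraries came from separate cultures, so the tests measure only the spread between these libraries. The epithelial markers Epcam, Cdh1, Krt8, Krt18, Krt19 and Krt7 were present in every library, with summed levels of 149858 to 158390 normalized counts in DMSO and 62410 to 65543 after P3FI-90. The 6 leukocyte markers summed to 368 to 434 normalized counts in DMSO and 279 to 405 after P3FI-90, most of it from Cd68, while Adgre1 was at 0.

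Free cholesterol is sensed in the membrane of the endoplasmic reticulum. SCAP escorts the membrane-bound factors SREBP1 and SREBP2, encoded by Srebf1 and Srebf2, to the Golgi, where they are cleaved and released to switch on genes of lipid synthesis and uptake. When sterols are plentiful, INSIG1 and INSIG2 hold SCAP back. Insig1 is itself an SREBP target, as is Srebf2. Surplus cholesterol is esterified by the acyltransferases SOAT1 and SOAT2 and stored in droplets, or exported by the transporters ABCA1 and ABCG1, whose genes are controlled by the oxysterol receptors LXR. SOAT1 is made in most tissues, whereas SOAT2 is known mainly from liver and intestine.

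Promoter sequence was read for members that fell together (Insig1, Srebf1 and Srebf2) and, for contrast, for Soat1, which was higher. RefSeq's table for GRCm38.p6 held 12 promoters of 7 of the members. Each sequence is the 250 bases before a transcription start, on the strand of the gene, and capitals mark CCAAT (the NF-Y box), GGGCGG (the Sp1 box), CACGTG (an E-box) or TCACNCCA (the first letters of the sterol element TCACNCCAC), searched on both strands. TCACNCCA lies within TCACNCCAC and was added after the sequences were seen. The windows are chr5:28071162-28071411 on the plus strand for Insig1, chr15:82147019-82147268 on the plus strand for Srebf2, chr11:60210472-60210721 on the minus strand for Srebf1, which has 3 listed starts, and chr1:156474329-156474578 on the minus strand for Soat1.
Insig1: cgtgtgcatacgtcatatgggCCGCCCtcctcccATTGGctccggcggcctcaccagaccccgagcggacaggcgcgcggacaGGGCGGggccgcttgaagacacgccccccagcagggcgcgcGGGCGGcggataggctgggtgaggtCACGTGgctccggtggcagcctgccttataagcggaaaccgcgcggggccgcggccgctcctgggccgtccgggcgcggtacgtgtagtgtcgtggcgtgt
Srebf2: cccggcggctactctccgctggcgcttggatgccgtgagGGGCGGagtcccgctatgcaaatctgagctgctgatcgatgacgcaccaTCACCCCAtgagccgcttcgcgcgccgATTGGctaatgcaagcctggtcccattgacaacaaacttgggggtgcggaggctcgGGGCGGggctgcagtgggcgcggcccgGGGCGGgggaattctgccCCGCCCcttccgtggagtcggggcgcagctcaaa
Srebf1: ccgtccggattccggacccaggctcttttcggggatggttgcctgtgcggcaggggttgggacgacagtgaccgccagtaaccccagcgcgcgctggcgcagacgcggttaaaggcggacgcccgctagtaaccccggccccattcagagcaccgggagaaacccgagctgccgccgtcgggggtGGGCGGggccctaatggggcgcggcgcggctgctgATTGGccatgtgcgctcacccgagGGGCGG
Soat1: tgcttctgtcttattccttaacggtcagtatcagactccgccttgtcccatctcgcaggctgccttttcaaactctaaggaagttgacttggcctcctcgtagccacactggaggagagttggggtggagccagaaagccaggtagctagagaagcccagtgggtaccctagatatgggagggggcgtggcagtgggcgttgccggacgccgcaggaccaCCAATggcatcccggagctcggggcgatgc

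CCAAT stood in the 4 windows printed, and in 6 of the 12 member promoters, against 33.8% of the 32851 promoters in the table. GGGCGG was in 8 of the 12, against 32.7% of all, and was found in the Insig1, Srebf2 and Srebf1 windows but not in that of Soat1. That contrast holds only for the 4 windows printed. Insig2, which was higher, and Scap, which was lower, each held GGGCGG in part of their windows. The Srebf1 start was picked with the matches known, and of its other starts one window has CCAAT without GGGCGG and the other GGGCGG without CCAAT. Insig1 was the only one of the 4 with CACGTG, which 3 of the 12 member promoters and 6.02% of all promoters held. The partial sterol element TCACNCCA was in 1 member promoter, that of Srebf2, against 3.67% of all, while the full TCACNCCAC was in 0 of the 12, against 1.05%. A perfect direct repeat of the kind bound by LXR was in 0 of the 12 and in 0.0152% of all. Srebf1, Insig2 and Scap each gave several of the 12 windows, and those of Scap overlap, so the 12 are not independent promoters. These matches describe the letters of the windows, and a motif that was not found is only missing from these windows. The submitters' processing notes name GRCm39 for the reads, so the sequences were joined to the counts by symbol only.

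Of the 9 members, 8 had enough counts to be tested. With edgeR (quasi-likelihood F test) and a threshold of 0.05 on the adjusted p, 3 were higher after P3FI-90 (Soat1, Soat2 and Insig2) and 5 were lower (Srebf1, Srebf2, Scap, Insig1 and Abcg1). Over all genes tested 79.3% were called, 39.9% higher and 39.4% lower. In bulk RNA, fewer cells that express a gene and less RNA in each cell cannot be told apart. Soat2 passed the filter on low counts through the P3FI-90 libraries alone. Its call, its lack of overlap and its large fold change were therefore fixed by that filter. The groups did not overlap for the 8 tested members, as for 81.2% of all genes tested, and 3 members (Soat2, Insig1 and Srebf1) passed an absolute log2 fold change of 1, as did 24.0% of all. With only genes of at least 10 counts in every library, which leaves Soat2 out, 2 members passed it. The median log2 fold change of the 8, Soat2 included, was −0.30, beside 0.013 over all genes tested. With libraries scaled by their total counts, which raised the median over all genes by 0.21, the members split into 3 higher and 3 lower, and all genes into 6179 higher and 3641 lower in place of 4908 and 4841.

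**Figure D1:**
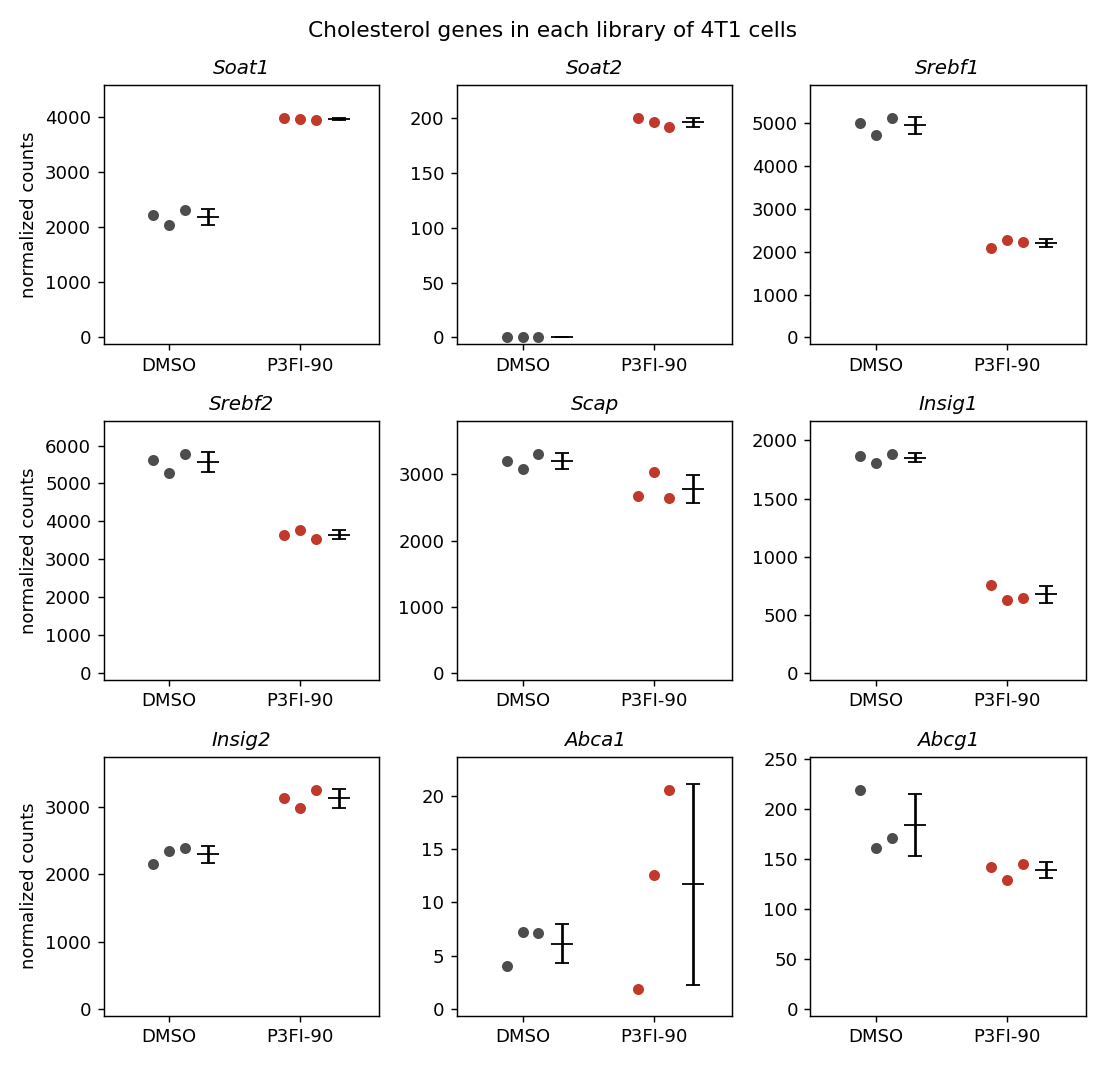
Normalized counts of the 9 genes (y axis, each panel on its own scale from 0) in the 3 DMSO and 3 P3FI-90 libraries, with 1 point per library and the mean ± SD beside them. Soat1, Soat2 and Insig2 sit higher in all P3FI-90 libraries, Srebf1, Srebf2, Scap, Insig1 and Abcg1 sit lower, and Abca1 overlaps.

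The esterification genes were both higher. Soat2 had 0 reads in each DMSO library and 214, 219 and 196 reads in the P3FI-90 libraries. The 3 treated libraries lay close together, at 200.2, 197 and 192 normalized counts, and no DMSO library held a single read. Against a floor of 3 counts over the DMSO group this was at least 183-fold higher, or at least 91.6-fold with a floor of 6 counts, which would apply if both mates of a pair had been counted. These bounds cover counting error only. Among the 74 tested genes without a read in DMSO, Soat2 had rank 2 by the mean after P3FI-90.

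Soat1, the isoform found in the controls as well, had 2231, 2037 and 2317 normalized counts in DMSO and 3991, 3967 and 3956 after P3FI-90. Every treated library was above every control, by a log2 fold change of 0.85 (SE 0.051), or 1.81-fold. Soat2 made up 4.63% to 4.78% of the reads on the pair in the treated libraries. Per kilobase of annotated exon, with every annotated exon of a gene counted, its part was 17.7% to 18.2%. This scale adjusts for gene length but not for which transcripts of a gene were made. On both scales Soat1 remained the more abundant of the pair, at 406 ± 1.83 normalized counts per kilobase (SD, n = 3) against 88.7 ± 1.87 for Soat2. No transcript window of 50 bases was shared between members, and 0.755% of those of Soat2 occurred in any other gene.

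The 8 markers listed for liver and intestine, the tissues best known for Soat2, were scarce in both groups. They were written by hand and do not stand for all genes of these tissues. Mttp, a lipoprotein gene not among the 8, rose from 257 to 983 normalized counts. Of the 8 liver and intestine markers listed, Ttr, Fabp1, Cdx2 and Hnf4a had 0 reads in all 6 libraries, and the 8 together summed to 34.7 to 68.6 normalized counts in DMSO and 8.42 to 28.8 after P3FI-90. The gene next to Soat2 upstream on the same strand, Igfbp6, had 22.2 normalized counts in DMSO and 8.33 after P3FI-90 (log2 fold change −1.40, SE 0.52), and its call was lost in some alternatives, such as the replicate block (−1.41). Csad, on its other side and on the opposite strand, fell from 413 to 124 normalized counts (log2 fold change −1.74, SE 0.14). The 3 genes whose centred log2 profile over the 6 libraries lay nearest to that of Soat2 were Mep1a, Dnah6 and Otogl, at Euclidean distances of 0.363, 0.998 and 1.10. Mep1a and Otogl were also at 0 in DMSO, and Dnah6 was at 0.80 normalized counts. Genes near 0 in DMSO with a like level after P3FI-90 lie close by construction, so the distances do not show shared control.

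The sterol-sensing factors were lower. Srebf1, which codes for the factor of fatty acid synthesis genes, had 4994, 4720 and 5118 normalized counts in DMSO and 2088, 2266 and 2219 after P3FI-90. The highest treated library reached less than the lowest control, and the log2 fold change was −1.17 (SE 0.047), a 2.26-fold lower level. Srebf2, whose product drives cholesterol synthesis genes, had 5629, 5277 and 5785 normalized counts in DMSO and 3640, 3771 and 3547 after P3FI-90. Its groups were also apart, with a log2 fold change of −0.61 (SE 0.042), or 1.52-fold lower. The exons of Srebf1 overlap those of Rai1 on the opposite strand, which had a log2 fold change of 0.098 (SE 0.046) and was not called. It was called, and higher, in 5 of the 15 alternatives, with values of 0.11 to 0.31. Tom1l2, the upstream neighbour of Srebf1 on the same strand, rose by 2.29 on the log2 scale (SE 0.039), and Ccdc134, the upstream neighbour of Srebf2, by 1.80 (SE 0.11).

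The ratio of Srebf1 to Srebf2 reads within a library does not depend on how libraries are scaled. It was 0.887, 0.894 and 0.885 in DMSO and 0.574, 0.601 and 0.626 after P3FI-90. The shift of −0.57 in the mean log2 ratio compares with SDs of 0.0080 in DMSO and 0.063 after P3FI-90 (n = 3 each). Srebf1 thus lost more of its reads than Srebf2 did in these libraries.

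Scap, the escort of both factors, had 3206, 3077 and 3314 normalized counts in DMSO and 2671, 3032 and 2649 after P3FI-90. The P3FI-90 library at 3032 came close to the lowest control, and the log2 fold change was −0.20 (SE 0.057), the smallest of the 8. Under scaling by total counts it was 0.014 and not called, so a lower level of Scap depends on the scaling. Of the transcript windows of Scap, 9.96% also occur in 5830462I19Rik, whose exons overlap its own. Its neighbour Ptpn23 on the opposite strand rose by 1.14 on the log2 scale (SE 0.040).

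The INSIG genes, which code for the anchors of SCAP, went in opposite directions. Insig1 had 1865, 1809 and 1886 normalized counts in DMSO and 762, 625 and 646 after P3FI-90. This was the lowest fold change of the members, −1.45 on the log2 scale (SE 0.073), or 2.74-fold lower, with no overlap. Insig2 had 2150, 2353 and 2385 normalized counts in DMSO and 3135, 2989 and 3259 after P3FI-90, again without overlap, a log2 fold change of 0.45 (SE 0.054), or 1.36-fold higher. Within a library, the ratio of Insig1 to Insig2 reads was 0.867, 0.769 and 0.791 in DMSO and 0.243, 0.209 and 0.198 after P3FI-90. The shift in the mean log2 ratio was −1.90, with SDs of 0.091 and 0.15 (n = 3 each). The genes with the centred log2 profile nearest to that of Insig1 were Tmem198b, Sbk1 and Rpl39, at distances of 0.0900, 0.104 and 0.118 over the 6 libraries. Their log2 fold changes were −1.42, −1.46 and −1.51, so these distances mostly reflect a like step between the groups and do not show shared control.

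**Figure D2:**
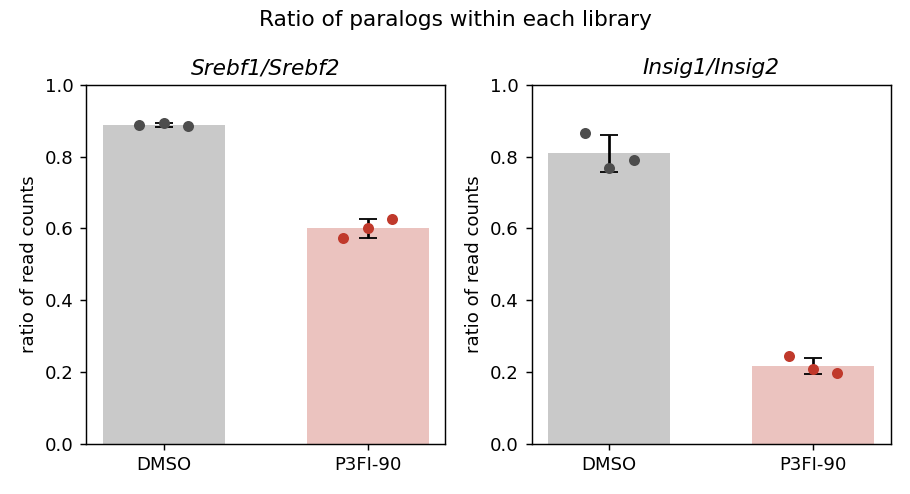
Ratio of read counts between paralogs within each library (y axis, from 0), for Srebf1 over Srebf2 and Insig1 over Insig2. Points are libraries, bars the means of 3 and whiskers the SD, and both ratios are lower in every P3FI-90 library than in any DMSO library.

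Both efflux transporters had low levels. Abca1, which passes cholesterol to lipid-poor apolipoprotein A-I, had 4, 6 and 7 reads in DMSO and 2, 14 and 21 after P3FI-90, too few to be tested. The lowest and the highest of the 6 counts were both in treated libraries. Scaled to library size, the ratio of the summed counts was 1.90, with an exact Clopper-Pearson 95% interval of 1.04 to 3.60 that covers counting error only. The interval takes every count as independent and would be wider if both mates of a pair had been counted. The treated libraries lay on both sides of the DMSO libraries, and Abca1 was not called in any of the 5 alternatives that tested it. Abcg1, which exports cholesterol to HDL, had 220, 161 and 171 normalized counts in DMSO and 142, 129 and 145 after P3FI-90. The first DMSO library stood above the rest, and the log2 fold change was −0.41 (SE 0.17). Without that library it was −0.27 and not called, and the call was also lost without the first, the second or the third P3FI-90 library (−0.43, −0.36 and −0.45), under total-count scaling (−0.19), with DESeq2 (−0.40) and with the replicate block (−0.40).

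**Figure D3:**
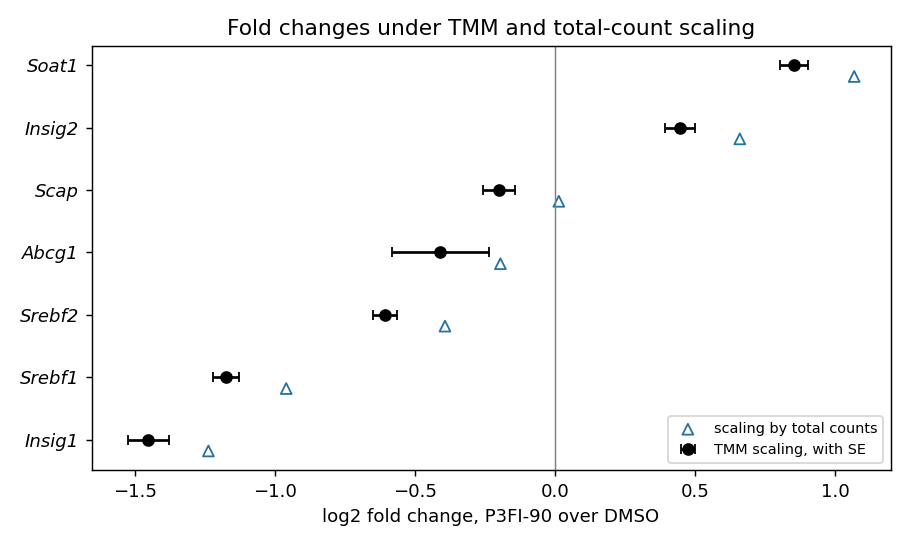
Log2 fold change of P3FI-90 over DMSO (x axis) for the 7 tested genes with reads in both groups, with its SE under TMM scaling (circles) and as a value under total-count scaling (triangles). Scap moves from −0.20 to 0.014, and the other 6 keep their side of 0.

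Per kilobase of exon, the order of the transcripts changed. In DMSO the order was Srebf1 (878 ± 36.2 normalized counts per kilobase, SD, n = 3), Srebf2 (774 ± 36.2), Insig2 (661 ± 36.7), Insig1 (599 ± 12.9), Scap (430 ± 15.9), Soat1 (224 ± 14.7), Abcg1 (25.2 ± 4.26), Abca1 (0.592 ± 0.175) and Soat2 at 0. No neighbours in that order overlapped across the 3 libraries. After P3FI-90 Insig2 came first at 901 ± 39.0, followed by Srebf2 at 508 ± 15.7 and Soat1 at 406 ± 1.83. Srebf1 (389 ± 16.4) and Scap (374 ± 28.9) overlapped each other, and Insig1 had gone to 219 ± 23.8. Soat2 lay below these at 88.7 ± 1.87, above Abcg1 at 19.0 ± 1.13 and Abca1 at 1.13 ± 0.905. The lengths count every annotated exon of a gene and are from GENCODE M21, which is not the annotation of the reads. Close ranks may therefore depend on them.

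**Figure D4:**
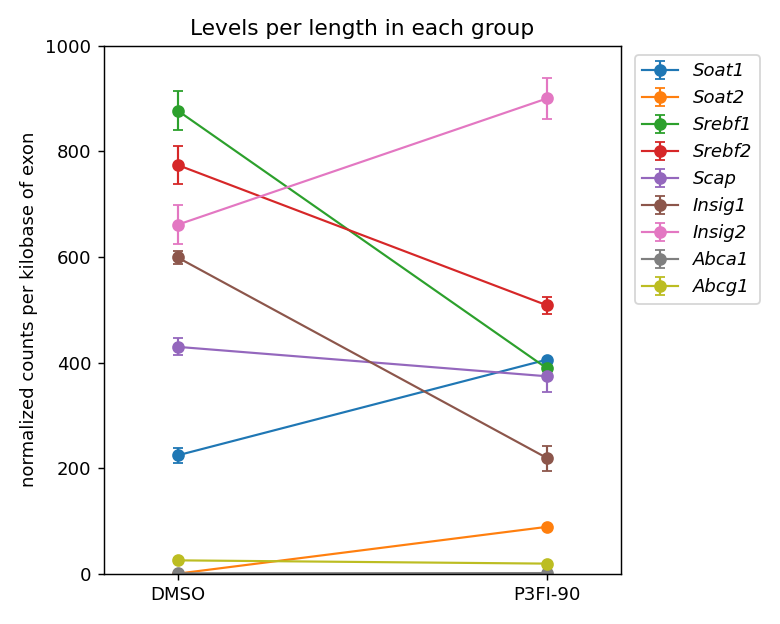
Level of each gene in normalized counts per kilobase of annotated exon (y axis, from 0) in DMSO and P3FI-90, as means of 3 libraries with SD. Lines join the same gene, and those of Insig2, Soat1 and Soat2 go up while those of Srebf1, Srebf2 and Insig1 go down.

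The other genes of the pathway were counted in 6 lists written from general knowledge, which leave the members out. For each, the share called is to be read beside 79.3% over all genes tested. Fatty acid synthesis genes driven by SREBP1 had the lowest median log2 fold change, −1.16, with 10 of 15 tested genes lower, 1 higher and 4 neither. Scd2, a desaturase, went from 45369 ± 1492 to 10124 ± 247 normalized counts (log2 fold change −2.16, SE 0.033). Fasn, the fatty acid synthase, and Acly, which makes cytosolic acetyl-CoA, fell by 1.64 and 1.30 on the log2 scale. Gpam, a glycerolipid acyltransferase, was the 1 that rose, by 0.31 (SE 0.066). Under total-count scaling the list had 3 higher and 10 lower.

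Of the 20 sterol synthesis enzymes, 16 were lower, 2 higher and 2 neither, with a median log2 fold change of −0.81. Idi1, which makes an isoprenoid unit, fell from 2648 ± 256 to 674 ± 67.2 normalized counts (log2 fold change −1.97, SE 0.081). Fdps, which joins such units, fell by 1.58 (SE 0.051). Lss, the lanosterol synthase, rose by 0.38 (SE 0.076) and Hsd17b7 by 0.35 (SE 0.094), so the enzymes did not all go one way.

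The genes of cholesterol uptake and of its exit from lysosomes were mixed, with 9 of 18 tested genes higher, 6 lower and 3 neither and a median log2 fold change of 0.16. Npc1, the lysosomal cholesterol transporter, rose from 688 ± 85.1 to 2686 ± 105 normalized counts (log2 fold change 1.96, SE 0.075). The sterol carriers Osbp and Gramd1a rose by 0.60 and 0.64. Snx17, a sorting protein of endosomes, fell by 0.66. Under total-count scaling this list had 12 higher and 4 lower.

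Among 20 genes of SREBP processing and degradation, 8 were higher, 11 lower and 1 neither, with a median log2 fold change of −0.13, and under total-count scaling 8 were higher, 6 lower and the median was 0.085. Rnf145, a sterol-responsive ubiquitin ligase, fell from 11097 ± 231 to 2402 ± 136 normalized counts (log2 fold change −2.21, SE 0.043). Mbtps1, the protease that makes the first cut in SREBPs, fell by 0.94 (SE 0.034). Of the 8 COPII coat genes in the list, which carry SCAP out of the endoplasmic reticulum and were grouped after their values were seen, 7 were called lower, Sec24c with the largest fall, by 0.72, and Sec24a was higher, by 1.10. Under total-count scaling 3 of them were called lower (Sec23a, Sec23b and Sec24c) and Sec24a higher.

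Efflux partners and LXR genes had 4 of 10 tested genes higher, 3 lower and 3 neither, with a median log2 fold change of 0.17, and 5 higher and 1 lower under total-count scaling. With only genes of at least 10 counts in every library, 7 were tested, 2 of them higher and 3 lower, with a median of −0.022. Apoe, a lipid-carrying apolipoprotein, rose from 122 ± 19.8 to 466 ± 82.6 normalized counts (log2 fold change 1.93, SE 0.16). Rxra, the partner receptor of LXR, fell by 0.81 (SE 0.061). The LXR gene Nr1h2 had a log2 fold change of −0.22 (SE 0.052), which was −0.0010 and not called under total-count scaling, and Nr1h3, at 55.1 and 71.6 normalized counts, was not called (0.38, SE 0.26).

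Genes of ester turnover and lipid droplets had 6 of 14 tested genes higher, 5 lower and 3 neither, with a median log2 fold change of 0.065, and 8 higher and 4 lower under total-count scaling. Nceh1, a cholesterol ester hydrolase that works against the SOAT enzymes, rose from 1105 ± 93.9 to 2166 ± 27.1 normalized counts (log2 fold change 0.97, SE 0.061). Mttp, which loads lipid onto lipoproteins, rose by 1.94 (SE 0.099), and Fitm2, a droplet-forming protein of the endoplasmic reticulum, by 1.30 (SE 0.059). Lipe, the hormone-sensitive lipase, fell by 1.12 (SE 0.11), and Dgat1, which makes triglycerides, by 0.83 (SE 0.11).

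**Figure D5:**
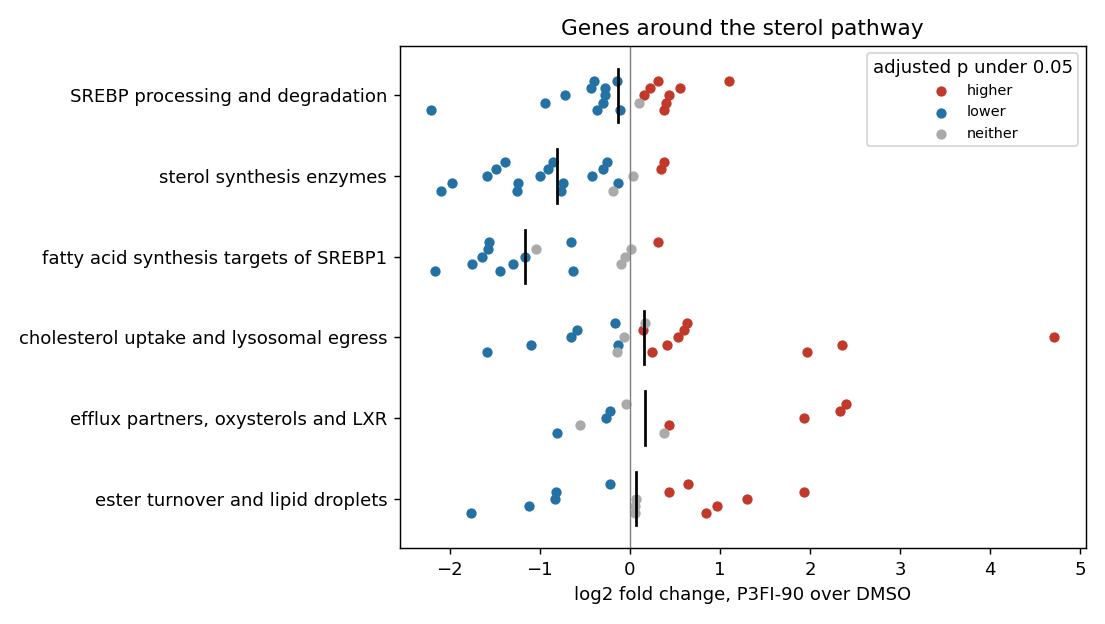
Log2 fold change of P3FI-90 over DMSO (x axis) for each tested gene of the 6 pathway lists (rows), coloured by its call at an adjusted p under 0.05, with a black line at the median of the list. The medians are −1.16 for fatty acid synthesis, −0.81 for sterol synthesis and between −0.13 and 0.17 for the other 4.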

How the data were processed

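Libraries from DMSO- and P3FI-90-treated 4T1 cells, 3 per group, were made with an Illumina mRNA-seq kit. The authors deposited whole-number read counts per gene without normalization. Per the submitters' processing notes, CASAVA, HISAT2 and StringTie were used with GRCm39, while the counting step, annotation and strandedness are not given in the sources used here, so reads of overlapping genes on opposite strands cannot be told apart. Of 22401 rows, 296 without a gene identifier (0.483% to 0.556% of a library's counts) were left out, and 6452 of the rest were at 0 throughout.

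Genes passing filterByExpr were scaled by TMM and compared with the quasi-likelihood F test of edgeR 4.0.16 (R 4.3.3), two-sided and without covariates, with Benjamini-Hochberg adjustment over 12288 genes and calls at an adjusted p under 0.05. A normalized count is the count divided by the library's effective size and multiplied by the mean of the 6 sizes. On simulated counts, with 200 of 12288 genes changed by a log2 value of 1, 187 of them were found, with 5.56% of calls false. In these data 79.3% of genes were called, so the simulated rates need not hold here. Exon lengths, neighbours and transcript windows came from GENCODE M21, which held 21995 of the identifiers.

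As alternatives, TMM was replaced by the size factors of DESeq2, total counts or upper quartiles, the filter by none or by 10 counts in every library, and the test by DESeq2 1.42.0 or limma 3.58.1 (the tool in the study's methods), as voom or on log2(CPM + 1). A replicate block was added, and each library was left out. Equally numbered libraries did not deviate together (correlations of −0.021, 0.015 and 0.0049 across genes) and were not paired. Within groups, pairs of libraries had a chi-square per gene between 5.50 and 8.41, so none was a duplicate. Besides the members, genes were named by a rule: the 5 smallest p of each list, called genes against the direction of their list, neighbours and nearest profiles, of which not all are printed. Nr1h3 lies outside it. Some genes of the lists and markers are counted but not reported here by name. The members, lists and motifs were chosen with earlier results of these data known.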

Additional observations from a re-analysis of the deposited data

How the results depend on the processing

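Over 15 alternatives, Soat1, Srebf1, Srebf2, Insig1 and Insig2 kept their direction and their call in each. Their log2 fold changes ranged from 0.80 to 1.07, −1.21 to −0.96, −0.65 to −0.39, −1.55 to −1.24 and 0.40 to 0.66, with total-count scaling at the upper end each time. Soat2, whose call the filter fixed, dropped out when 10 counts were needed in every library. Its lower bound was 91.6 against a floor of 6 counts. The log2 fold change of Scap became 0.014 under total counts, without a call. That of Abcg1 was −0.19 under total counts, −0.40 with DESeq2 and −0.40 with the replicate block, and −0.50 to −0.27 with each library left out, and it was called in 8 of 15 alternatives. Apart from Abcg1 and the neighbour Igfbp6, the block changed no call of the tested members, neighbours and list genes named here. Abca1, tested in 5 alternatives, had values from 0.68 to 1.42 and was not called. The number of members called ranged from 6 to 8. The paralog shifts were read in 7 alternatives, and their ends came from leaving out a P3FI-90 library. They ranged from −0.60 to −0.54 for Srebf1 over Srebf2 and from −1.99 to −1.84 for Insig1 over Insig2.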
